A study of Homo sapiens with 42 samples.

Results

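The feedback inhibitors of ERK signalling described here are 10 genes: the dual specificity phosphatases DUSP4, DUSP5, DUSP6, DUSP1 and DUSP10, the Sprouty genes SPRY1, SPRY2 and SPRY4, and the Sprouty-related genes SPRED1 and SPRED2. They were chosen by name as a pathway group, with earlier results of these data known. Each was read on the brightest of its probe sets (the highest mean over 42 arrays) among those annotated to that gene alone, and all 10 genes were measured, with 22 probe sets of the 41091 that carry 1 gene and 10 of the 19775 genes tested. The study treated head and neck squamous cell carcinoma (HNSCC) cell lines with cetuximab (CTX), an antibody that keeps ligands off the EGF receptor, to follow gene expression after the receptor is blocked. Each of 6 lines has 3 arrays of cells given 100 nM CTX for 24 hours and 3 control arrays, which the labels call untreated and the study's methods describe as given PBS. SCC25, SQ20B and SCC61 are HPV-negative, and SCC047, SCC090 and 93VU147T are HPV-positive. SCC1 cells have 3 CTX arrays and HaCaT, an immortalized keratinocyte line, has 3 control arrays. Their levels are described, and they enter no comparison. Each line is 1 established line in culture, the HPV status of the lines comes from the study's text, and no source used here names the cultures behind the arrays of a group. The p-values therefore rest on array-to-array spread alone, part of which may be technical. In bulk RNA, fewer cells of a type and less RNA per cell cannot be told apart.

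EGF receptor activity is passed through RAS, RAF and MEK to the kinase ERK. ERK in turn switches on genes whose products damp the same cascade. DUSP6 removes phosphate from ERK in the cytoplasm, DUSP5 does so in the nucleus, and DUSP4 and DUSP1 are nuclear phosphatases that act on ERK and also on JNK and p38. DUSP10 acts mainly on JNK and p38. Sprouty proteins restrain the signal between receptor and RAF, and SPRED proteins bring neurofibromin, a RAS inactivator, to the membrane. Because ERK output drives many of these genes, their transcripts are widely used as a readout of the pathway.

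Values are log2 expression values as deposited, so a difference of 1 is a 2-fold change. Array medians ran from 5.09 to 5.16. Levels of different genes were not compared with each other, since every probe set has its own brightness. The highest group means of SPRY1 (6.42) and SPRY4 (6.68) lay at percentiles 42.6 and 45.2 of all genes, whereas DUSP1 and DUSP10 lay at percentiles 94.7 and 89.4. The array labels fall into 3 sets by a date in the array name, of 35, 4 and 3 arrays. SQ20B control replicate 3 lies in the set of the SCC1 arrays, the HaCaT arrays form a set of their own, and the other arrays share 1 set. SCC090 control replicate 1 stood apart from the other control arrays of its line: 158 genes were at least 1 log2 unit above the mean of replicates 2 and 3 and 71 at least 1 below. DUSP6 was 1.98 and SPRY2 1.41 above that mean, at percentiles 99.8 and 99.6 of all genes, and the ERK-induced genes PHLDA1 and ETV5 were 2.17 and 1.84 above it. Results for SCC090 are therefore given with and without this array. The difference between 3′ and 5′ probe sets of ACTB, a sign of RNA quality, was larger in all CTX arrays than in all control arrays of SQ20B (by 0.29), SCC047 (by 0.11) and SCC25 (by 0.07), and its part in the results was not tested. Among epithelial markers, KRT5 lay between 10.59 and 13.47, CDH1 between 10.22 and 11.44 and EPCAM between 8.79 and 11.39 in the 12 group means. KRT14 ranged from 4.85 to 14.23. The leukocyte marker PTPRC lay between 3.87 and 4.30, but LAPTM5 lay between 5.16 and 7.51 and CD14 between 4.44 and 6.85. The fibroblast markers COL1A1 and LUM ranged from 5.46 to 9.92 and from 2.93 to 9.34, so the marker lists give no uniform contrast. In the mean change, 0 of 5 measured squamous markers were lower and 3 higher, 1 of 4 leukocyte markers and 1 of 3 endothelial markers were lower, and 2 of 4 fibroblast markers were higher. The part of other cell types in the results was not tested.

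Promoters are shown for 4 genes that stand for the patterns described next: DUSP6, with the largest fall, SPRY4 and SPRY2, which fell less, and DUSP1, whose level moved little in most lines. They were chosen after their values were seen. Each is a RefSeq window of 250 bases before to 50 bases after a start site on GRCh38.p14. Windows were read for 8 of the 10 genes, and none was read for DUSP4 or DUSP5. The windows lie at chr12:89352452-89352751 (DUSP6), chr5:142324198-142324497 (SPRY4), chr13:80341077-80341376 (SPRY2, the first of 3 windows) and chr5:172771146-172771445 (DUSP1), all on the minus strand. Capitals mark GGAA or its reverse complement TTCC, the tetramer at the core of sites for ETS factors, and TGACGTCA, the cyclic AMP response element.
DUSP6: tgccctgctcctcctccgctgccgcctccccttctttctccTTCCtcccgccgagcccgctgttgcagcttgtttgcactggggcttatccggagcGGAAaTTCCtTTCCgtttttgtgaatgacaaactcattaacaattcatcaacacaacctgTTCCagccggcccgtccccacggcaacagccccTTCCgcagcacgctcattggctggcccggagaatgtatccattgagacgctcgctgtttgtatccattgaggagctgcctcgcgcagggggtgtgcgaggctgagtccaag
SPRY4: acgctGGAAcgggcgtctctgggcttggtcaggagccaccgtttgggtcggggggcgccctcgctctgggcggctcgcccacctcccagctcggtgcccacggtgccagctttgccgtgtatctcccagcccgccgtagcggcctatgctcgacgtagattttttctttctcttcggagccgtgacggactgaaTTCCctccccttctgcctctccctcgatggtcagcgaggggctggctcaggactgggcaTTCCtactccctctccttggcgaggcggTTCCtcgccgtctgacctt
SPRY2: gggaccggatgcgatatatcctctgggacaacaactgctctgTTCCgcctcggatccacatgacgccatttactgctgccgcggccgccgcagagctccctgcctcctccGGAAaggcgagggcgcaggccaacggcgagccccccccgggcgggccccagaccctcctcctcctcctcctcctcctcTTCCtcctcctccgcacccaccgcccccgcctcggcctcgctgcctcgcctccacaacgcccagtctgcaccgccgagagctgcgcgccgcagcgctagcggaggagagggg
DUSP1: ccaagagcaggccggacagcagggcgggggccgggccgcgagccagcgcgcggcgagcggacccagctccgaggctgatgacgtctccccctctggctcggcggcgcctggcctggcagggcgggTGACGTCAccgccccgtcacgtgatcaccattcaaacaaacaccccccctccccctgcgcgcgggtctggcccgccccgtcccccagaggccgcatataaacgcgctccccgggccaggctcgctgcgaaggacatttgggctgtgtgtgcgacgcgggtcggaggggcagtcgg
The DUSP6 window holds 6 tetramers, SPRY4 4, SPRY2 3 and DUSP1 0, against a median of 3 in 35116 windows of the same length, of which 95.5% hold at least 1 and 16.1% at least 6. A SPRED2 window also holds 6, the SPRY1 windows hold 5 and 4, and the other SPRY2 windows hold 4 and 5. The single full cyclic AMP response element in the windows of these 8 genes stands in DUSP1, at position -125 from the start site, and 1.85% of all windows hold one. Searches on both strands for CCGGAAG (10.3% of windows), TGANTCA (7.71%), an AP-1 site, and the serum response element (1.29%) found none of them in these 4 windows. A match is a description of the letters and not of a bound site.

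Between 3 and 8 of the 10 genes were lower with cetuximab, depending on the line. In the mean of the 6 lines 9 of 10 were lower and 0 higher at an adjusted p under 0.05 in limma, where 23.1% of all genes were lower and 22.8% higher. DUSP10 was the gene not called on its brightest probe set, and on its second it passed as lower (-0.21, adjusted p = 0.00143 in limma). The median change of the 10 genes was -0.51 log2 units, against -0.016 over all genes. Of 60 changes (10 genes in 6 lines), 33 passed as lower and 2 as higher. By line, the share of all genes that passed as lower ran from 0.885% in SCC090 to 19.8% in SCC61. The share that passed as higher ran from 0.516% in SCC090 to 24.4% in SCC61. DUSP6 was the 1 member called lower in each of the 6 lines, a pattern met by 5 genes of the whole array (0.0253%). Its call in SCC047 was lost without some single arrays of that line. SPRY2 also changed downward in all 6 lines and missed the threshold in SCC25 alone (adjusted p = 0.0671 in limma). Without SCC090 control replicate 1 it passed there too (adjusted p = 0.000757), so the difference between DUSP6 and SPRY2 rests on the threshold and on single arrays. With a test against a minimum change of 0.5 in place of 0, the 9 lower genes of the mean became 3, namely DUSP4, DUSP5 and DUSP6. The share of all genes passing that test was not counted, and the 23.1% above does not apply to it.

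**Figure D1:**
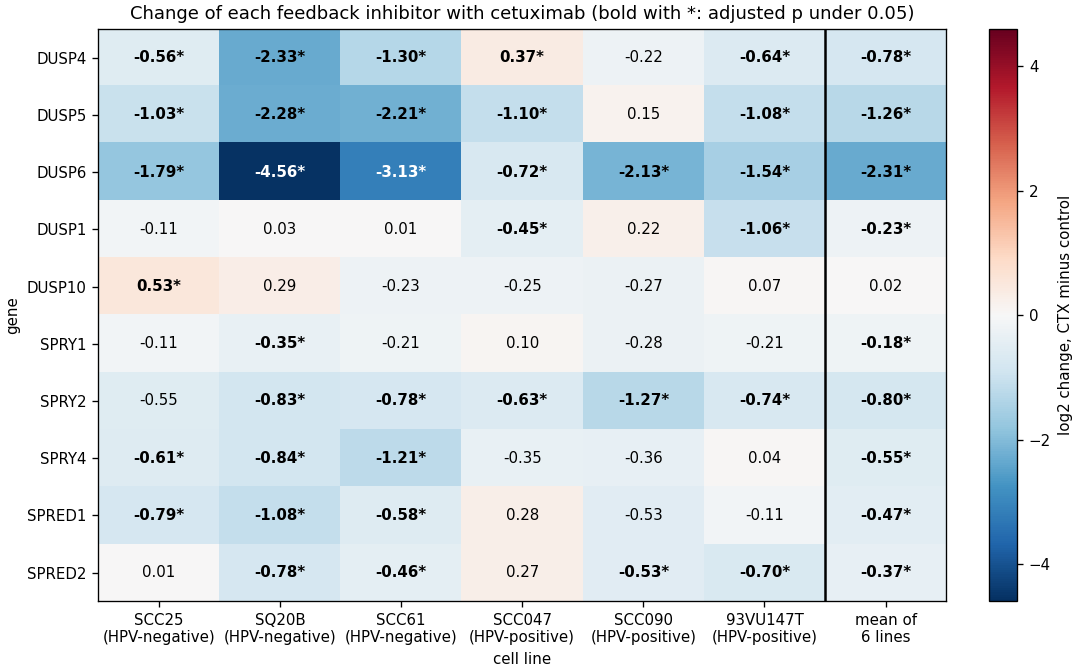
Log2 change (CTX minus control) of each feedback inhibitor in each line and in the mean of 6 lines, with bold figures and a star where limma's adjusted p is under 0.05. DUSP6 is starred in all 6 lines, DUSP10 is starred once, as higher in SCC25, and DUSP4 is starred as higher in SCC047.

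DUSP6 fell more than any other member in the mean of the lines, with a log2 change of -2.31 (SE 0.11, adjusted p = 2.43e-16 in limma). In SQ20B the 3 CTX arrays read 4.58, 4.40 and 4.42, against 9.30, 8.70 and 9.07 in the controls. That is a log2 change of -4.56 (SE 0.27, adjusted p = 3.12e-14 in limma), and it was -4.53 without the control array of the other set. The treated level lies below the median of all values (5.13) and has no detection call, so no fold is given for it. SCC61 arrays read 6.27, 6.53 and 6.30 with CTX and 9.53, 9.34 and 9.62 in the controls, a change of -3.13 (SE 0.27). In both lines the arrays of the 2 conditions lay far apart. In SCC25 the CTX arrays read 6.60, 6.48 and 6.48 and the controls 8.38, 8.42 and 8.14, a change of -1.79. In 93VU147T they read 7.10, 6.84 and 7.15 with CTX and 8.72, 8.71 and 8.28 in the controls, a change of -1.54.

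SCC047 kept the most DUSP6 under CTX. Its CTX arrays read 7.94, 7.71 and 8.14 and its controls 8.35, 8.71 and 8.89, a change of -0.72 (SE 0.27, adjusted p = 0.0384 in limma) with no overlap of the arrays. This call was lost when any of 4 single SCC047 arrays was left out (adjusted p between 0.0747 and 0.142 in limma). It was also lost on the second probe set (-0.50, adjusted p = 0.233). Without SCC090 control replicate 1 the adjusted p in SCC047 was 9.34e-05. In SCC090 the CTX arrays read 6.52, 6.51 and 6.41 and the controls 9.93, 7.95 and 7.96. The change was -2.13 with all arrays and -1.47 without the first control (adjusted p = 1.36e-06 in limma). Treated SCC1 cells, which have no control here, read 4.95, 4.98 and 5.06, between the treated means of SQ20B (4.47) and SCC61 (6.37), and untreated HaCaT cells averaged 9.15 ± 0.08 (SD, n = 3). The means of the 6 lines spanned 3.46 log2 units under CTX, from SQ20B to SCC047, against 1.18 in the controls, from SCC25 to SCC61.

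**Figure D2:**
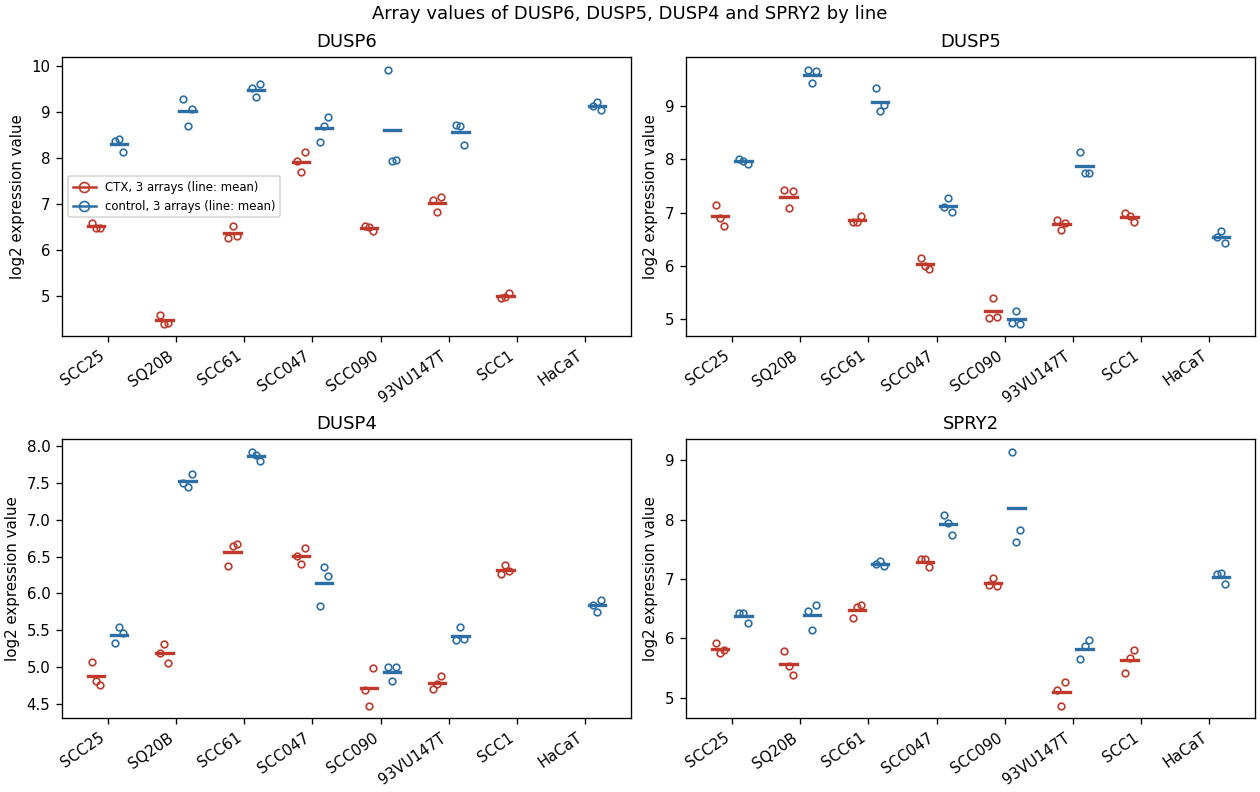
Log2 expression value of DUSP6, DUSP5, DUSP4 and SPRY2 on each array, by line, with CTX arrays (red) left of control arrays (blue), a bar at the mean of 3 arrays, and SCC1 (CTX alone) and HaCaT (control alone) at the right. DUSP6 is lower with CTX in all 6 lines, DUSP5 in 5 of them, and 1 SCC090 control array lies above the other control arrays of its line for DUSP6 and SPRY2.

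DUSP5, the nuclear ERK phosphatase, was lower in 5 of 6 lines and in the mean (log2 change -1.26, SE 0.05, 2.39-fold lower, adjusted p = 8.97e-18 in limma). SQ20B and SCC61 had the largest falls. SQ20B arrays read 7.42, 7.09 and 7.41 with CTX and 9.68, 9.43 and 9.65 in the controls, a change of -2.28 (SE 0.12). SCC61 arrays read 6.83, 6.83 and 6.93 with CTX and 9.33, 8.90 and 9.01 in the controls, a change of -2.21 (SE 0.12). SCC25, SCC047 and 93VU147T changed by -1.03, -1.10 and -1.08, each with all CTX arrays below all controls. SCC090 was the line where DUSP5 was not called: its CTX arrays read 5.02, 5.41 and 5.05 and its controls 4.93, 5.16 and 4.92, a difference of 0.15 (SE 0.12, adjusted p = 0.69 in limma). The untreated mean there lies below the median of all values (5.13) and has no detection call, so a fall could go unseen. For DUSP5 the line means spanned 2.15 log2 units under CTX and 4.59 in the controls, so the lines lay closer together with the drug. The low end of both spans is SCC090, with the limit just given.

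DUSP4, a nuclear phosphatase, was lower in 4 lines and in the mean (log2 change -0.78, SE 0.05, 1.72-fold lower, adjusted p = 5.47e-14 in limma). SQ20B arrays read 5.19, 5.31 and 5.06 with CTX and 7.49, 7.44 and 7.62 in the controls, a change of -2.33 (SE 0.12). In SCC61 the values were 6.37, 6.64 and 6.67 with CTX and 7.92, 7.87 and 7.79 in the controls, a change of -1.30 (SE 0.12). SCC25 and 93VU147T changed by -0.56 and -0.64, and both calls were lost on the second probe set of the gene (-0.35 and -0.36). SCC047 went the other way, with 6.51, 6.40 and 6.62 in CTX arrays and 5.83, 6.36 and 6.24 in controls (change 0.37, SE 0.12, adjusted p = 0.0146 in limma). The other probe sets gave 0.23 and -0.16 there, and the call was lost without control replicate 1 (0.21, adjusted p = 0.18 in limma) or CTX replicate 3 (0.31, adjusted p = 0.0748), so the direction in SCC047 depends on the probe set. In SCC090 DUSP4 averaged 4.72 ± 0.26 in CTX arrays and 4.94 ± 0.10 in controls (SD, n = 3 each) and was not called. Both means lie below the median of all values (5.13), where a fall could go unseen. Across the 6 lines the changes of DUSP4 and DUSP6 ran in the same order at both ends, with SQ20B and SCC61 lowest and SCC047 highest (Pearson's r 0.96 over 6 lines, which share 1 normalization and, but for SQ20B control replicate 3, 1 array set).

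SPRY2, which restrains receptor signalling upstream of RAF, was lower in 5 lines and in the mean (log2 change -0.80, SE 0.08, 1.74-fold lower, adjusted p = 3.3e-09 in limma). The changes were -0.83 in SQ20B, -0.78 in SCC61, -0.63 in SCC047 and -0.74 in 93VU147T, with no overlap of CTX and control arrays in any of them. The SCC047 call was lost without control replicate 1 (adjusted p = 0.0625 in limma) or CTX replicate 3 (0.0525). In SCC25 the CTX arrays read 5.92, 5.75 and 5.81 and the controls 6.42, 6.43 and 6.26 (change -0.55, SE 0.20, adjusted p = 0.0671 in limma), and the change passed without SCC090 control replicate 1 (adjusted p = 0.000757). In SCC090 the CTX arrays read 6.90, 7.02 and 6.89 and the controls 9.14, 7.63 and 7.83. The change there was -1.27 with all arrays and -0.80 without the first control (adjusted p = 0.000982 in limma), which falls among the other lines. The test for unequal change among lines did not pass for SPRY2 (adjusted p = 0.281), with a span of 0.72 between the lines.

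SPRY4 was lower in the 3 HPV-negative lines and in the mean (log2 change -0.55, SE 0.06, adjusted p = 1.23e-08 in limma). In SCC61 the arrays read 5.44, 5.47 and 5.51 with CTX and 6.79, 6.53 and 6.73 in the controls, a change of -1.21 (SE 0.15), or 2.32-fold lower. SQ20B changed by -0.84 and SCC25 by -0.61, and the SCC25 call was lost without SCC25 CTX replicate 1 (-0.42, adjusted p = 0.0747 in limma). SCC047 (-0.35), SCC090 (-0.36) and 93VU147T (0.04) were not called. Line means of SPRY4 lay within 0.51 log2 units of each other under CTX, against 1.13 in the controls. The treated means, from 5.20 in SQ20B to 5.71 in SCC25, lie close to the median of all values (5.13), where a further fall could go unseen. SPRY1, which restrains receptor signalling like SPRY2, was called lower in SQ20B, with 5.70, 5.67 and 5.63 in CTX arrays and 5.99, 5.96 and 6.10 in controls (change -0.35, SE 0.10, adjusted p = 0.00461 in limma), and in the mean (-0.18, SE 0.04). Its second probe set is dimmer in the mean of all arrays but moved more, by -1.18 in SCC61, -0.69 in SQ20B and -0.63 in SCC090, and the SCC61 change passed on it (adjusted p = 4.85e-10 in limma) and not on the brightest one (-0.21, adjusted p = 0.0732).

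SPRED1 and SPRED2, which act at RAS, both fell in SQ20B and SCC61. SPRED1 was lower in the 3 HPV-negative lines: SQ20B arrays read 6.97, 6.70 and 6.68 with CTX and 7.89, 7.99 and 7.71 in the controls, a change of -1.08 (SE 0.19, adjusted p = 3.09e-05 in limma). SCC25 changed by -0.79 (SE 0.19). SCC61 changed by -0.58 with overlapping arrays (4.96, 5.89 and 5.39 with CTX, 5.71, 5.97 and 6.29 in the controls), and that call was lost without control replicate 3 (adjusted p = 0.0994 in limma) or without CTX replicate 1 (0.153). SCC047 (0.28), SCC090 (-0.53) and 93VU147T (-0.11) were not called for SPRED1. SPRED2 was lower in SQ20B (-0.78, SE 0.12), SCC61 (-0.46), 93VU147T (-0.70) and SCC090 (-0.53), and it was not called in SCC047 (0.27). On its second probe set the 93VU147T call was lost (-0.23, adjusted p = 0.293 in limma), as was that of SCC090 (-0.58, adjusted p = 0.0551). In SCC090 it averaged 7.91 ± 0.10 in CTX arrays and 8.44 ± 0.27 in controls (SD, n = 3 each), with no overlap. That call was lost without control replicate 1 (-0.38, adjusted p = 0.35 in limma), without CTX replicate 2 (0.0685) or without CTX replicate 3 (0.129). In SCC25 SPRED2 averaged 8.16 ± 0.11 in CTX arrays and 8.15 ± 0.04 in controls (SD, n = 3 each), while SPRED1 averaged 5.38 ± 0.14 and 6.17 ± 0.15. In the mean of the lines SPRED1 changed by -0.47 (SE 0.08) and SPRED2 by -0.37 (SE 0.05), both lower in limma.

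DUSP1 and DUSP10 had fewer called changes than the other phosphatases, 2 and 1 of 6 lines. DUSP1 was lower in 2 of the HPV-positive lines. In 93VU147T it read 7.46, 7.46 and 7.32 with CTX and 8.73, 8.54 and 8.14 in the controls, a change of -1.06 (SE 0.13, adjusted p = 6.63e-08 in limma). In SCC047 it read 8.11, 7.99 and 7.89 with CTX and 8.36, 8.53 and 8.45 in the controls, a change of -0.45 (adjusted p = 0.0051 in limma). The other probe sets of DUSP1 gave smaller values in 93VU147T, -0.36 (adjusted p = 0.00361 in limma) and -0.23. In SCC25, SQ20B and SCC61, where it was brightest, the differences were -0.11, 0.03 and 0.01, none past the test. The mean over lines was -0.23 (SE 0.05, adjusted p = 0.000541 in limma), and it rests on 1 line, being -0.06 without 93VU147T (adjusted p = 0.424). On the second probe set SQ20B changed by -0.48 (adjusted p = 0.000181 in limma), so the value in SQ20B depends on the probe set. DUSP10 was higher in SCC25, with 8.20, 8.05 and 7.98 in CTX arrays and 7.66, 7.48 and 7.50 in controls (change 0.53, SE 0.12, adjusted p = 0.00202 in limma). The second probe set gave 0.34 there (adjusted p = 0.0772 in limma). In SQ20B the change was 0.29 (adjusted p = 0.0671 in limma) and, without control replicate 2, 0.51 (adjusted p = 0.000329). In SCC61 the brightest probe set of DUSP10 gave -0.23 (adjusted p = 0.125 in limma) and the second -1.09 (adjusted p = 1.05e-08). In SCC047 the brightest gave -0.25 (adjusted p = 0.111 in limma) and the second -0.46 (adjusted p = 0.00501).

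**Figure D3:**
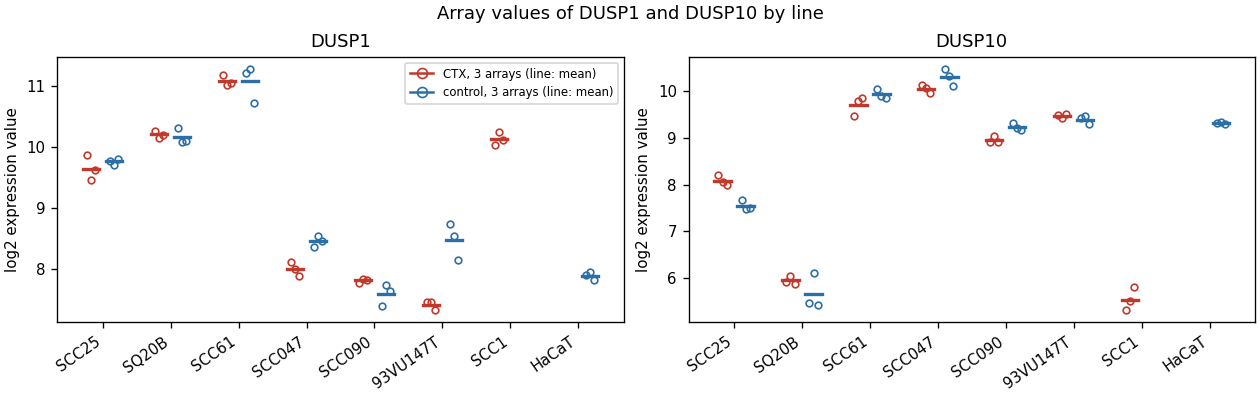
Log2 expression value of DUSP1 and DUSP10 on each array, by line, with CTX arrays (red) left of control arrays (blue) and a bar at the mean of 3 arrays. DUSP1 is lower with CTX in SCC047 and 93VU147T, DUSP10 is higher in SCC25, and the lines lie further apart than the conditions within most lines.

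The untreated cells already differed in which inhibitors they carried. Each line's control mean was set against the mean of the other 5. Of the 10 genes, 8 differed in SCC25 (adjusted p under 0.05 in limma, as did 47.9% of all genes), 7 in SQ20B (51.8%), 9 in SCC61 (54.3%), 8 in SCC047 (52.5%), 9 in SCC090 (64.7%) and 7 in 93VU147T (53.1%). These shares have the lines' general differences as their background. SCC61 and SQ20B held the most DUSP4 (7.86 ± 0.07 and 7.52 ± 0.10), DUSP5 (9.08 ± 0.23 and 9.59 ± 0.14) and DUSP1 (11.07 ± 0.30 and 10.16 ± 0.13; SD, n = 3 each). SCC090 held the least of each of the 3, with DUSP5 at 5.00 ± 0.14, which was a difference of -3.32 from the mean of the other lines (SE 0.10, adjusted p = 1.89e-24 in limma). It held the most SPRY1, SPRY2, SPRED1 and SPRED2, although its SPRY2 arrays overlapped those of SCC047 and its SPRED1 arrays those of SQ20B. The first place for SPRY2 rests on control replicate 1, without which SCC090 averaged 7.73, against 7.92 in SCC047, and its SPRED1 mean was then 7.85, against 7.86 in SQ20B. Its SPRY2 excess over the other lines was 1.45 with all arrays and 0.98 without control replicate 1.

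DUSP10 had the widest untreated range of the 10 genes, 4.64 log2 units. SCC047 held 10.30 ± 0.18 and SCC61 9.93 ± 0.09, while SQ20B held 5.66 ± 0.38 (SD, n = 3 each), a difference of -3.62 from the mean of the other lines (SE 0.09, adjusted p = 3.49e-25 in limma). Treated SCC1 cells read 5.31, 5.51 and 5.81. The control means of DUSP6 spanned 1.18, and apart from SCC61 at the top (9.49 ± 0.14) every neighbouring pair of lines overlapped in its arrays. SCC090 differed from the other lines by -0.20 in DUSP6 with all arrays (adjusted p = 0.424 in limma) and by -0.86 without control replicate 1 (adjusted p = 6.98e-07). 93VU147T held the least SPRY2 (5.83 ± 0.17) and SPRY4 (5.55 ± 0.09), SCC61 the least SPRED1 (5.99 ± 0.29) and SCC047 the least SPRED2 (7.30 ± 0.09). The SPRED1 order of SCC61, SCC047 and SCC25 was within the spread of their arrays, and SCC61 differed from the other lines by -1.09 on the brightest probe set and by 0.03 on the second. HaCaT cells fell inside the range of the tumour lines for every gene except SPRY1, where they were lowest (5.17 ± 0.06).

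**Figure D4:**
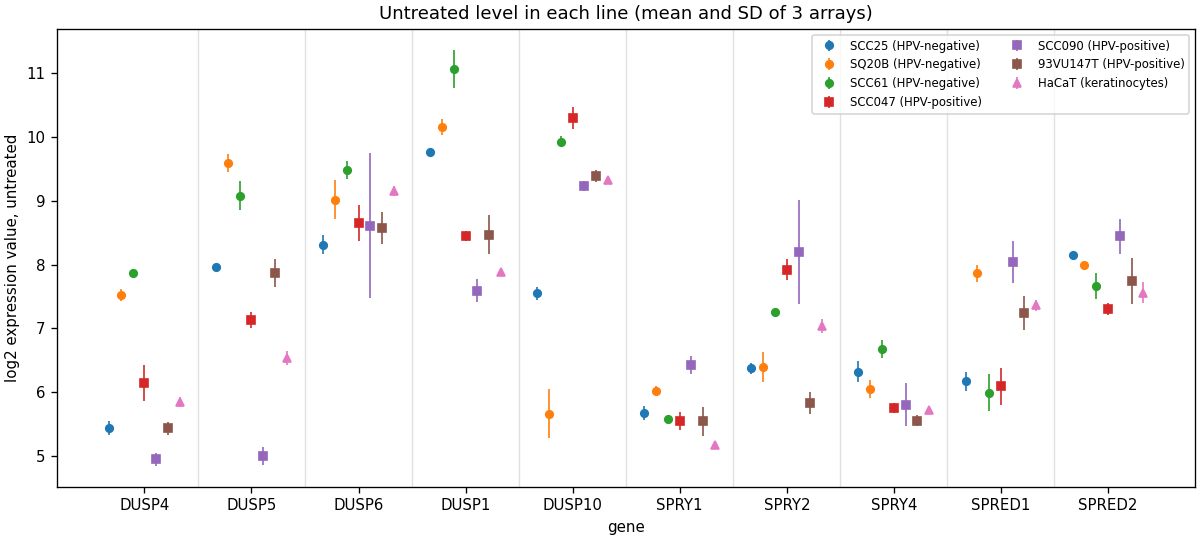
Untreated log2 level of each gene in the 6 HNSCC lines (circles HPV-negative, squares HPV-positive) and in HaCaT (triangles), as mean and SD of 3 control arrays. SCC090 is lowest for DUSP4, DUSP5 and DUSP1 and highest for SPRY1, SPRY2, SPRED1 and SPRED2 with all 3 control arrays, and SQ20B is lowest for DUSP10.

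Read by line, the set of inhibitors that fell differed. In SQ20B 8 of 10 fell, all but DUSP1 and DUSP10 (14.9% of all genes were lower and 18.4% higher there), and its 10 changes summed to -12.72 log2 units. This is also the line with the largest shift in the ACTB 3′ to 5′ difference (0.29), whose part in these falls was not tested. In SCC61 7 fell, those of SQ20B without SPRY1 (19.8% lower, 24.4% higher). In SCC25 5 fell, DUSP4, DUSP5, DUSP6, SPRY4 and SPRED1, and DUSP10 rose (7.3% lower, 8.66% higher). In 93VU147T 6 fell, all phosphatases but DUSP10 together with SPRY2 and SPRED2 (18.8% lower, 15.8% higher). In SCC047 4 fell, DUSP5, DUSP6, DUSP1 and SPRY2, and DUSP4 rose (19% lower, 17.3% higher), with the smallest sum of changes, -2.48. The direction of DUSP4 in SCC047 depends on the probe set, and its call and those of DUSP6 and SPRY2 were lost without some single arrays. In SCC090 DUSP6, SPRY2 and SPRED2 fell (0.885% lower, 0.516% higher). Without its first control array 2 fell, DUSP6 and SPRY2, when 0.162% of all genes were lower.

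The changes were unequal among the 6 lines for 8 of 10 genes (F test in limma, adjusted p under 0.05, which 59% of all genes passed). The widest spans were those of DUSP6, 3.83 log2 units between SQ20B and SCC047, DUSP4 at 2.70 and DUSP5 at 2.44. SPRY1 (adjusted p = 0.0589) and SPRY2 (0.281) did not pass. SPRY1 passed in 7 other settings, among them its second probe set (adjusted p = 1.05e-06 in limma), centred medians (0.00406) and quantile normalization (0.00552), so its call depends on the processing. Set by HPV status, the change was lower in the HPV-negative lines for 5 genes and higher for 2 (adjusted p under 0.05 in limma, where 14.9% of all genes were lower and 22.3% higher). DUSP6 averaged -3.16 in the HPV-negative and -1.47 in the HPV-positive lines, a difference of -1.69 (SE 0.22). DUSP4 averaged -1.40 and -0.17, a difference of -1.23 (SE 0.10), and DUSP5 -1.84 and -0.68, a difference of -1.17 (SE 0.10). In these 3 genes SQ20B and SCC61 lay below every HPV-positive line, and SCC25 lay within the range of the HPV-positive lines. The HPV-positive means of DUSP4 and DUSP5 include SCC090, where both lay below the median of all values (5.13) and a fall could go unseen. In SCC047 and 93VU147T DUSP5 changed by -1.10 and -1.08, against -1.03 in SCC25. DUSP4 changed by 0.37 and -0.64 there, against -0.56 in SCC25. The part of this limit in the differences was not tested. For DUSP6 the place of SCC25 depends on SCC090 control replicate 1. Without that array the HPV-positive changes were -0.72, -1.47 and -1.54, and SCC25 at -1.79 lay below all of them. SPRY4 (difference -0.67) and SPRED1 (-0.69) were the 2 genes whose change in every HPV-negative line lay below that in every HPV-positive line, as in 7.08% of all genes. For SPRED1 that gap was narrow, -0.58 in SCC61 and -0.53 in SCC090. Without SCC090 control replicate 1, DUSP6 joined them as the third such gene, when 7.1% of all genes had this arrangement. No member had all HPV-negative lines above all HPV-positive ones, an arrangement that 8.66% of all genes had. DUSP1 (0.41) and DUSP10 (0.34) were the 2 genes with a higher change in the HPV-negative lines, and on their second probe sets the differences were 0.03 and -0.02, neither called. With 3 lines a side an exact permutation of the lines cannot give a two-sided p below 0.1, and other traits of the lines cannot be told apart from HPV status.

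**Figure D5:**
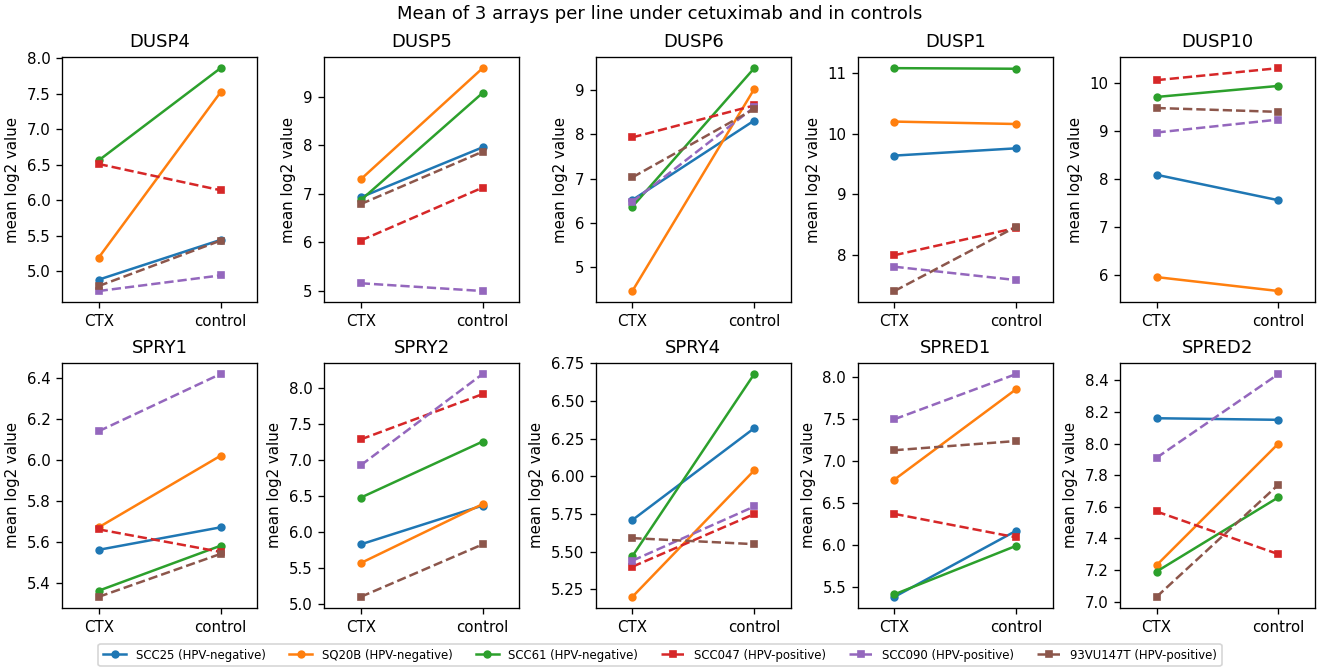
Mean log2 value of 3 arrays per line under CTX (left) and in controls (right) for each gene, with circles and full lines for HPV-negative and squares and dashed lines for HPV-positive lines. The lines spread out under CTX for DUSP6 (span 3.46 against 1.18) and draw together for DUSP5 (2.15 against 4.59) and SPRY4 (0.51 against 1.13). SPRY4 under CTX and DUSP5 in SCC090 lay near the median of all values (5.13), where a fall could go unseen.

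Other probe sets served as a check in 7 of the 10 genes. Of the 35 called line changes, 22 could be checked in this way, and 19 had the same sign on every other probe set of the gene. The 3 that did not were DUSP4 in SCC047 and SPRED2 in SCC090 and 93VU147T, where the dimmest SPRED2 probe set, whose highest group mean was 3.90, gave 0.03 in both. DUSP6 had the same sign on all 3 probe sets in all 6 lines, with mean changes of -2.31, -2.26 and -1.89.

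Other genes of the pathway, in lists also chosen with earlier results known, were counted in the mean of the lines. There 23.1% of all genes were lower and 22.8% higher. Of 9 ERK-induced transcription factors and early genes, 9 were lower, EGR1 with a log2 change of -2.62 (SE 0.11) and PHLDA1 with -1.06 (SE 0.12). Of 7 other MAP kinase phosphatases and family members, 3 were lower and 1 higher. DUSP2, a nuclear phosphatase of immune cells, changed by -0.29 and DUSP8 by -0.25. DUSP7, a close cytoplasmic relative of DUSP6, changed by -1.19 in SCC61 and -0.74 in SQ20B and by 0.64 in SCC047 and 0.45 in 93VU147T, each past the test. Of 11 measured genes of the RAS-ERK cascade itself, 1 was lower and 6 were higher, with SOS2 at 0.36 and SOS1 at 0.29, the exchange factors that load RAS with GTP. Among 5 measured RAS GTPase activators, 2 were lower, RASA3 at -0.20 and RASAL1 at -0.16. Among 6 measured JNK and p38 cascade genes, 1 was lower and 2 higher, and MAP2K6, a kinase upstream of p38, had the largest change, 0.38, which rests on 93VU147T (1.72) and was 0.12 in the mean of the other 5 lines. By their levels over the 12 group means, the genes most like DUSP6 were ETV4 (Pearson's r 0.766), EGR1 (0.757) and HBEGF (0.757), among 10307 genes whose means span at least 1 log2 unit. SPRY4 was most like HBEGF as well (0.903). The closest genes to DUSP4, DUSP5, DUSP1, DUSP10 and SPRY2 were GARS1 (0.898), TRMT11 (0.908), ZNF585A (0.957), DZIP1 (0.962) and FAM241B (0.92). Those to SPRY1, SPRED1 and SPRED2 were MYEF2 (0.944), CEP15 (0.916) and FAAP20 (0.829). The 12 means share lines, so these coefficients describe the panel and carry no test.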

How the data were processed

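RNA of 42 arrays (Affymetrix hgu133plus2.0, 3 per group) was profiled. The deposited log2 values, 1 per probe set, came from fRMA, which normalizes each array against a frozen reference. pSVA, a batch correction, also stands in the study's methods, but no source used here says that these values went through it. The values carry no detection call. Of 54675 probe sets, 41091 carry 1 gene, and the brightest per gene gave 19775 genes. In limma 3.58.1 (R 4.3.3) 12 group means were fitted on 36 arrays (24 residual and 6.86 prior degrees of freedom), with Benjamini-Hochberg adjustment over all genes and an adjusted p under 0.05 as the threshold. SCC1 and HaCaT stayed out of the fit. The fit was tested on simulated data. Some genes of the pathway and marker lists are not analysed here. All 10 members are named, with the 2 largest mean changes of each pathway list and the genes most correlated with each member. DUSP7 was named after its values were seen. Members and lists were chosen with earlier results of these data known. Alternatives were other probe set choices, a filter on dim genes, centring, quantile normalization, a replicate block, all 42 arrays, array set as covariate, trended moderation, a minimum change of 0.5, and each array or line left out. The number of arrays limits the precision, and the values depend on the probe set.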

Additional observations from a re-analysis of the deposited data

Results flagged for a closer look

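Unequal change among the 6 lines, by the limma F test, which 59% of all genes passed, marked 8 of the 10 genes: DUSP4 (adjusted p = 2.54e-13), DUSP5 (1.24e-12), DUSP6 (6.88e-09), DUSP1 (2.08e-06), DUSP10 (0.000269), SPRY4 (0.000142), SPRED1 (0.000683) and SPRED2 (1.03e-05). Without SCC090 control replicate 1 these adjusted p-values ran up to 0.000478, and those of SPRY1 and SPRY2 were 0.0655 and 0.583. SPRY1 passed in 7 other settings (adjusted p from 7.66e-07 to 0.0464).

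The difference between the mean change of the HPV-negative and that of the HPV-positive lines passed limma for 7 genes, where 14.9% of all genes were lower and 22.3% higher. It was -1.69 for DUSP6, -1.23 for DUSP4, -1.17 for DUSP5, -0.69 for SPRED1, -0.67 for SPRY4, 0.41 for DUSP1 and 0.34 for DUSP10. For DUSP4 and DUSP5 the difference includes SCC090, where both genes were dim and a fall could go unseen. For DUSP1 it came from the HPV-positive side, where 93VU147T changed by -1.06, SCC047 by -0.45 and SCC090 by 0.22. With 3 lines a side an exact permutation of the lines cannot give a two-sided p below 0.1.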

How the results depend on the processing

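The 9 lower members of the mean stayed 9 in each fit with 1 array left out. Over 17 other settings 1559 single values kept their side of the threshold, while 85 lost a call and 51 gained one. Another 15 turned with a call in the main fit or the other one, each under another choice of probe set. The cause was not tested. Values that changed sign but were called in neither fit count as kept, and they numbered 34 over these settings and the left-out arrays. On the second brightest probe set, members higher numbered 0 in SCC25, 0 in SCC047, 0 in the HPV difference and 1 in untreated 93VU147T, and members lower 0 in untreated SCC61. There DUSP1 in SQ20B was -0.48, DUSP4 in SCC047 -0.16 and in untreated SCC047 0.34, DUSP10 -0.21 in the mean and -0.02 in the HPV difference, SPRY1 -0.21 in untreated SQ20B and 0.35 in untreated SCC61, and SPRED1 0.03 in untreated SCC61. The probe set with the largest ratio of deviation between groups to that within gave the same values for DUSP10 (-0.21 and -0.02), SPRY1 (-0.21 and 0.35) and SPRED1 (0.03), with 0 members higher in SCC25, 1 in the HPV difference and 1 in untreated 93VU147T, and 1 lower in untreated SCC61. With all probe sets of a gene averaged, DUSP1 in SQ20B was -0.24 and SPRY1 in untreated SCC61 0.04, and members higher numbered 0 in SCC047, 0 in the HPV difference and 1 in untreated 93VU147T, with 1 lower in untreated SCC61. Centred medians gave 2 members higher in SCC047, 1 in the HPV difference and 1 lower in untreated SCC61. Against a minimum change of 0.5, members lower numbered 2 in SCC25, 3 in SQ20B, 4 in SCC61, 1 in SCC047, 1 in SCC090, 3 in 93VU147T, 3 in the mean and 3 in the HPV difference, and members higher 0 in SCC25, 0 in SCC047 and 0 in the HPV difference. In untreated cells that test left 2 lower and 0 higher in SCC25, 1 lower in SQ20B, 1 lower in SCC61, 3 lower in SCC047, 3 higher in SCC090, and 3 lower and 1 higher in 93VU147T. Shares of all genes under that test were not counted, so these numbers have no background beside them.

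Replicate numbers were not used to pair the samples in the main fit. Of 18 same-numbered pairs, 7 correlated above 0.1 (r between -0.15 and 0.32), and 1 pair of unlike numbers in 93VU147T reached 0.363. These values do not settle whether the numbers pair the samples. A replicate block gave 1 member higher in SQ20B, DUSP10 (adjusted p = 0.0407 in limma), against 0 without the block. In untreated cells it called DUSP5 in SCC25 (0.23, adjusted p = 0.0114) and lost SPRY4 in SCC090 (-0.27, adjusted p = 0.0899). With single arrays left out, members higher ran from 0 to 2 in SCC047, from 0 to 1 in SQ20B and from 1 to 2 in untreated 93VU147T. With 3 arrays a group and no detection calls, small changes of dim probe sets such as SPRY1 are the least certain.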
